A study of Mus musculus with 6 samples.

Results

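Cytokinesis divides the cell body after mitosis, and the genes described here are 10 that build its machinery: Prc1, Kif23, Racgap1, Aurkb, Incenp, Ect2, Arhgef2, Rhoa, Anln and Cit. Their members on the array were all probe sets whose platform annotation names a single one of these genes, which gave 28 of 45101 probe sets, for 10 of 18193 named genes. Messenger RNA was measured in mouse megakaryocytes, the platelet-forming cells of the blood system, with 1 Affymetrix array per sample. The groups were 3 samples titled Gata-1 Knock Down and 3 titled Gata-1 Wild Type, lettered A, B and C in each. Both were grown in differentiation medium from progenitors of the fetal liver at embryonic day 13.5, and the megakaryocytes were collected on a gradient of bovine serum albumin. The labels do not say how the knock down was made, which mouse strain was used, or whether the 3 samples of a group came from separate animals or cultures. The p-values therefore rest on the spread among these 6 arrays alone, and that spread may be technical.

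At the end of mitosis PRC1 bundles antiparallel microtubules into the central spindle, where the kinesin KIF23 and RACGAP1 form the centralspindlin complex. Centralspindlin recruits the exchange factor ECT2, which loads the GTPase RHOA with GTP beneath the membrane, and active RHOA drives the formins and myosin II of a contractile ring that anillin and citron kinase hold in place. Megakaryocytes stop short of this step: in endomitosis they enter mitosis, form a spindle and then fail to complete the cleavage furrow, so that one cell accumulates many genomes. Loss of ECT2 and of ARHGEF2 (GEF-H1), the exchange factors for RHOA, is known to accompany the change from dividing progenitor to polyploid megakaryocyte.

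Of the 10 genes, each read on its brightest probe set, 4 were higher in knock down (Prc1, Arhgef2, Anln and Aurkb), 1 was lower (Incenp) and 5 did not pass the test (Ect2, Kif23, Racgap1, Rhoa and Cit). A gene was called at a limma adjusted p of 0.05 over all 31526 probe sets tested. Of all 14230 genes tested 35.5% were called, 18.3% higher and 17.1% lower, so a call was common in this comparison. The median log2 fold change, always given as knock down over wild type, was 0.07 over the 10 genes and 0.03 over all genes. Of the 24 member probe sets bright enough to be tested, 7 were higher, 1 was lower and 16 were not called, beside 30.4% called among all probe sets, 16.1% higher and 14.3% lower. On the normalized values the groups did not overlap for 5 of the 10 genes and 9 of the 24 probe sets, where 47.8% of all genes and 43.0% of all probe sets did not. The summed signal of the 10 genes was 17762.0 to 18331.1 in knock down and 17242.3 to 17518.8 in wild type.

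**Figure D1:**
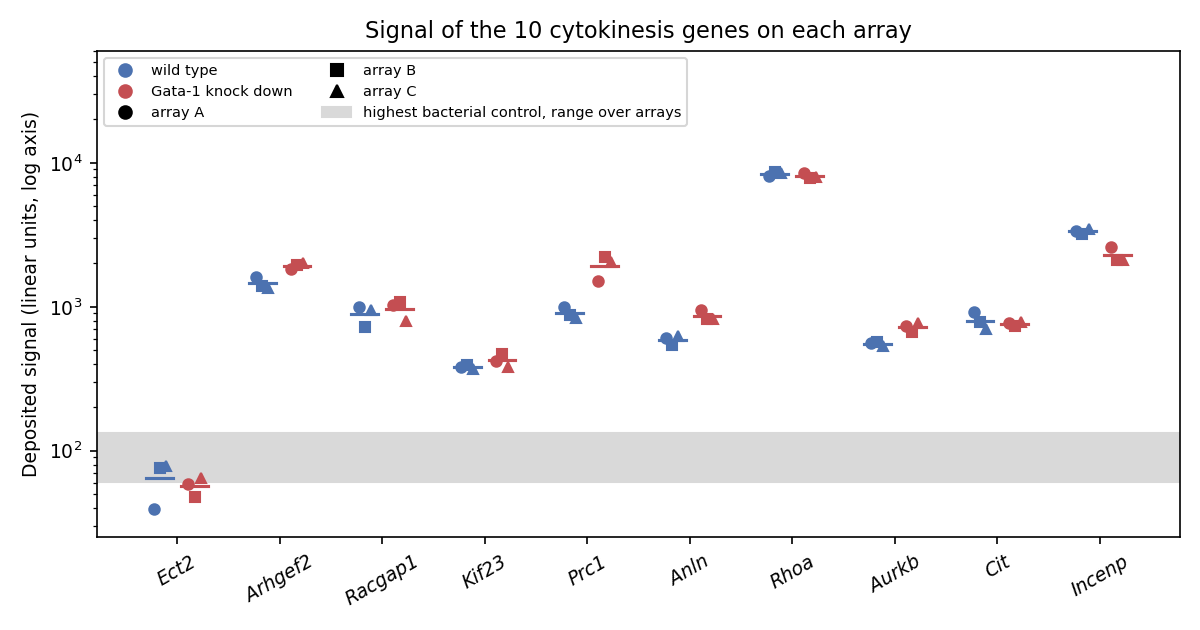
Deposited signal of the brightest probe set of each of the 10 genes on a log axis, with 1 point per array and a bar at the mean of each group of 3. The groups lie apart for Prc1, Arhgef2, Anln, Aurkb and Incenp, and they overlap for Ect2, Kif23, Racgap1, Rhoa and Cit.

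Gata1 itself had signals of 153.5, 143.3 and 194.7 in knock down and 8723.7, 8246.5 and 8495.6 in wild type, which follows the titles. The arrays differed in background. The median deposited signal was 111.3 to 137.8 on the knock down arrays and 101.6 to 104.4 on the wild-type arrays, with knock down B at the top. On that array the brightest bacterial control, a probe set for RNA that no mouse cell makes, read 132 against 60.7 to 82.2 on the other 5. Scaling therefore bears on small changes: 52.9% of all calls were higher after the quantile normalization used here, 60.0% without it and 32.9% with each array centred on its median, and the median change of all probe sets was 0.04, 0.15 and -0.05 in turn. Without knock down B, 4 member genes were higher and 1 lower, as were 6 and 1 of the member probe sets.

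Promoter windows show which short elements the members hold in common. Windows of 300 bases, from 250 before to 50 after the annotated start, were taken from RefSeq on the GRCm38.p6 assembly for 8 of the 10 genes, all but Aurkb and Incenp. TTTGAA is the cell cycle genes homology region, bound by the DREAM complex in genes of late cell cycle, and it was searched with CCAAT, which often lies beside it, on both strands. Both are in capitals below, on either strand, in the coding direction of the gene. The 5 windows printed are those of the genes that hold both elements, or TTTGAA alone in Anln.

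Prc1, chr7:80294201-80294500, plus strand: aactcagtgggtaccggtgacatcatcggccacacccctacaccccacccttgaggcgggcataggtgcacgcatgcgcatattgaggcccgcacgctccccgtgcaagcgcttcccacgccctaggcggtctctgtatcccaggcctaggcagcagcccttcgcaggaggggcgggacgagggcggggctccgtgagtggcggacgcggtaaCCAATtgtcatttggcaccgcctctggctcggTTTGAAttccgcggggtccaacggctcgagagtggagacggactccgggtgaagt

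Kif23, chr9:61946750-61947049, minus strand: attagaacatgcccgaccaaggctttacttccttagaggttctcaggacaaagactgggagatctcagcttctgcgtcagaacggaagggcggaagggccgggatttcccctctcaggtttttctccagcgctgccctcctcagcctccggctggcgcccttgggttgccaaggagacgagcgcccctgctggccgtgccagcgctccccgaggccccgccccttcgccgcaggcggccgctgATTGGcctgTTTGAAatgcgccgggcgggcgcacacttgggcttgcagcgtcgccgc

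Racgap1, chr15:99651607-99651906, minus strand: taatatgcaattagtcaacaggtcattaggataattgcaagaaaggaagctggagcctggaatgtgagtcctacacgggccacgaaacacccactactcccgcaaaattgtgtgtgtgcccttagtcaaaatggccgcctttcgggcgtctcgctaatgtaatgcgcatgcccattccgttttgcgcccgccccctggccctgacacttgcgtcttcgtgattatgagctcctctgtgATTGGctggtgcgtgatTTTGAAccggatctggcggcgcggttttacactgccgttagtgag

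Ect2, chr3:27153829-27154128, minus strand: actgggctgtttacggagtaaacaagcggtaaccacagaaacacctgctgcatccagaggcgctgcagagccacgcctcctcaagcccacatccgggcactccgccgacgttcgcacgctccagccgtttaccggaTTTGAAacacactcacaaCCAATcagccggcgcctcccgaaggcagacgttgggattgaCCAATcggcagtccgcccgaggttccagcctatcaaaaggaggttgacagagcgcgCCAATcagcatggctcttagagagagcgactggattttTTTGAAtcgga

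Anln, chr9:22389157-22389456, minus strand: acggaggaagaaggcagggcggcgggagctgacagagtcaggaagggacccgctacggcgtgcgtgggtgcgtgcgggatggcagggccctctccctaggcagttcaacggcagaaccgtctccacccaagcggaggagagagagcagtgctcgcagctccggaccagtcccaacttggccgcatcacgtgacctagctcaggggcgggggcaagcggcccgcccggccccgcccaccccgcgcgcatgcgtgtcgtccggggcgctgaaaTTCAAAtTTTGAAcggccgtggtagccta

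TTTGAA or its reverse complement was in windows of 5 of the 8 genes (Prc1, Kif23, Racgap1, Ect2 and Anln), and in 20.2% of all 27025 genes with a window. CCAAT was in windows of 5 of the 8 (Prc1, Kif23, Racgap1, Ect2 and Arhgef2), and in 41.1% of all genes. Rhoa and Cit held neither. The palindromic form TTCGAA, the GATA forms AGATAA and TGATAA and the E2F forms TTTGGCGC, TTTCCCGC, TTTGCCGC and TTTCGCGC were in no window of the 8 genes. Of all genes, 1.80%, 21.0% and 2.60% held the respective kind in the forms searched. Other GATA forms, such as AGATAG and TGATAG, were not searched, so absence of GATA motifs is not shown. The Ect2 window above holds ctatca, the reverse complement of TGATAG. A match is a description of letters and not of a bound site. Among the 5 genes with TTTGAA, the arrays called Prc1 and Anln higher and did not call Kif23, Racgap1 or Ect2.

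Prc1, the microtubule bundler of the spindle midzone, rose more than any other member. Its brightest probe set, 1423775_s_at, read 1516.6, 2203.1 and 2051.2 in knock down A, B and C and 997.2, 877.3 and 839.5 in wild type. Every knock down array lay above every wild-type array, with means of 1924 ± 361 and 905 ± 82.3 (SD, n = 3 each). The log2 fold change was 1.04 ± 0.14 (SE; limma adjusted p = 0.000259), a fold of 2.06. The second probe set, 1423774_a_at, read 777.2, 513.3 and 810.4 in knock down and 385.9, 394.4 and 375.7 in wild type, again without overlap. It rose by 0.70 ± 0.16 (limma adjusted p = 0.00659). The rise of the brightest probe set was called in all 16 alternative analyses, where it lay between 0.85 and 1.23.

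The centralspindlin genes were not called. Kif23, the motor subunit, read 422.1, 468.7 and 380.6 in knock down and 382.2, 391.8 and 367.6 in wild type on its brightest probe set (424 ± 44.1 and 381 ± 12.2, SD, n = 3 each). The groups overlapped, and the 95% interval of the log2 fold change ran from -0.21 to 0.31 (limma adjusted p = 0.812). Its other probe sets, 1450827_at and 1453748_a_at, lay near the bacterial controls. Racgap1, the subunit that binds ECT2, read 1026.0, 1080.9 and 800.4 in knock down and 993.9, 719.3 and 942.4 in wild type (969 ± 149 and 885 ± 146). These groups overlapped as well, with an interval of -0.23 to 0.42 (limma adjusted p = 0.689). Its probe set 1421546_a_at had an interval of -0.11 to 0.61 and was not called either.

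The difference between Prc1 and centralspindlin was then taken within each array, on normalized log2 values, which removes any scaling common to an array. Prc1 minus Kif23 was 1.81, 2.24 and 2.39 in knock down and 1.28, 1.08 and 1.08 in wild type, a change of 1.0 without overlap. The corresponding change against Racgap1 was 0.95, also without overlap. The gene pairs compared in this way were 7 and were chosen after the values were seen. With 3 arrays against 3, the two-sided exact permutation test cannot go below p = 0.1. Both differences reached that value, or 0.117 after adjustment over the 7. Among the 7, Arhgef2 minus Ect2 changed by 0.68 with overlap (exact permutation p = 0.2). Aurkb minus Incenp and Anln minus Cit changed by 0.81 and 0.56 without overlap, each gene read on its brightest probe set. The pairs with Rhoa are given below. The share of all gene pairs that separate was not computed. Read singly on normalized values, 47.8% of all genes separated.

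The chromosomal passenger genes Aurkb and Incenp were called in opposite directions, and for each the call rested on a single probe set. Aurkb encodes the kinase of the complex. It read 729.9, 664.1 and 775.4 in knock down and 556.7, 567.8 and 531.5 in wild type on 1424128_x_at, without overlap, for means of 723 ± 56.0 and 552 ± 18.6 (SD, n = 3 each). It rose by 0.31 ± 0.09 (limma adjusted p = 0.0322), a call that was lost in 8 of 16 alternative analyses. With each array centred on its median it was 0.17 (limma adjusted p = 0.403). Its other probe set, 1451246_s_at, read 454.5, 372.5 and 348.8 in knock down and 337.1, 438.9 and 358.7 in wild type, and its log2 fold change of -0.06 was not called.

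Incenp encodes the scaffold that activates the kinase. Its brightest probe set, 1439436_x_at, read 2585.2, 2114.7 and 2123.5 in knock down and 3381.8, 3224.0 and 3478.2 in wild type. All knock down arrays lay below all wild-type arrays (2274 ± 269 against 3361 ± 128), and the gene fell by 0.50 on the log2 scale (SE 0.08; limma adjusted p = 0.000762). The suffix _x_at, which the brightest sets of Aurkb and Cit carry too, marks a set whose probes may match other transcripts. On 1423093_at the order was the reverse, with 243.3, 346.7 and 259.5 in knock down and 214.8, 100.1 and 168.3 in wild type, also without overlap, although the log2 fold change of 0.60 ± 0.23 was not called (limma adjusted p = 0.0798). The other 2 tested sets changed by 0.03 and -0.01 and were not called, and when a gene was read as the mean over its probe sets Incenp stood at 0.07 on the log2 scale (limma adjusted p = 0.638).

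**Figure D2:**
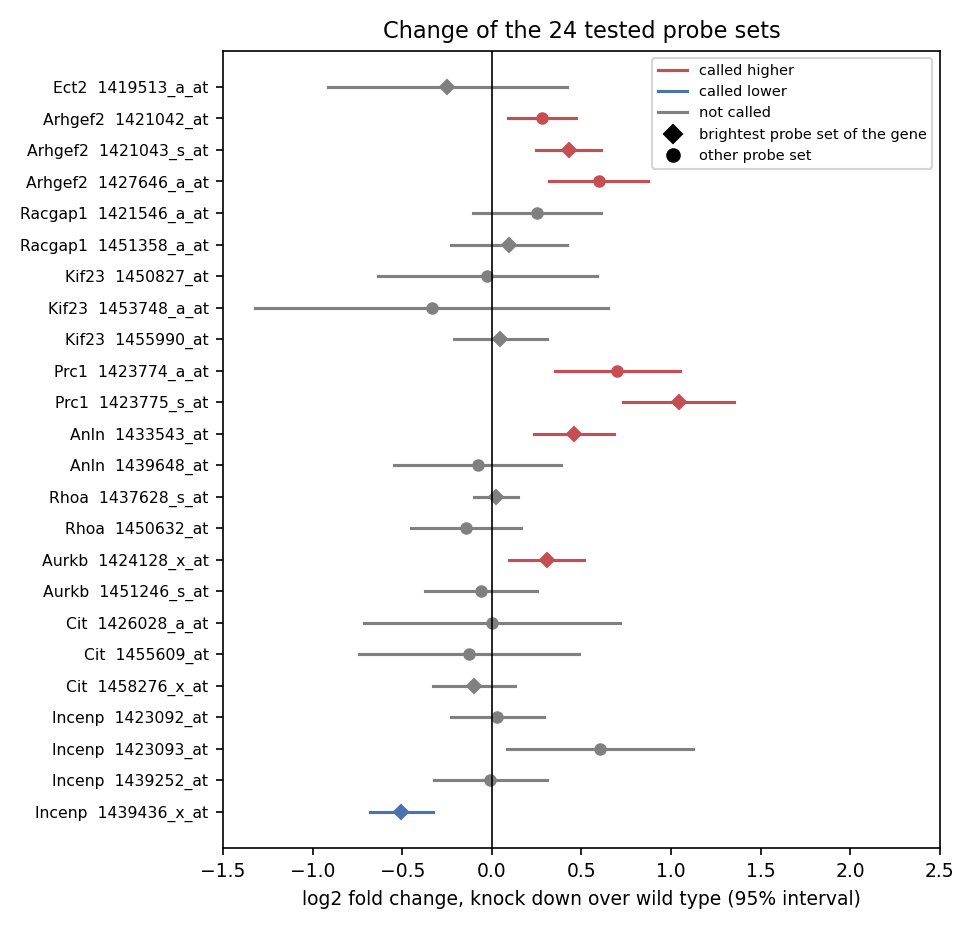
Log2 fold change of each of the 24 tested member probe sets, knock down over wild type, with its 95% interval from limma. All probe sets of Prc1 and Arhgef2 lie to the right of 0 with called intervals, whereas those of Anln, Aurkb and Incenp differ from each other.

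Of the factors that turn RHOA on, Arhgef2 rose and Ect2 could not be measured above background in knock down. Ect2 had a single probe set, which read 59.2, 48.0 and 64.4 in knock down and 39.4, 76.1 and 78.7 in wild type. None of the 3 knock down arrays and 2 of the 3 wild-type arrays exceeded their own brightest bacterial control. The interval of the log2 fold change was wide, from -0.92 to 0.42 (limma adjusted p = 0.598), so neither a rise nor a fall of moderate size was detectable at this signal.

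Arhgef2 encodes GEF-H1, an exchange factor that microtubules hold inactive. On its brightest probe set, 1421043_s_at, it read 1836.3, 1942.3 and 2012.0 in knock down and 1614.2, 1400.5 and 1353.8 in wild type (1930 ± 88.5 and 1456 ± 139, SD, n = 3 each). The groups did not overlap, and the log2 fold change was 0.43 ± 0.08 (limma adjusted p = 0.00254). The largest change was on 1427646_a_at, with 710.9, 624.1 and 764.6 in knock down against 365.4, 478.3 and 443.3 in wild type. That rise of 0.60 ± 0.12 (limma adjusted p = 0.00424) was called in every alternative analysis that tests single probe sets. The third set, 1421042_at, rose by 0.28 ± 0.09 (limma adjusted p = 0.0311), a call lost in 7 of 15 alternatives. With median centring the brightest set was at 0.21 and was not called (limma adjusted p = 0.205).

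Rhoa, the GTPase at the centre of the pathway, did not pass the test. It read 8439.8, 7834.0 and 7959.3 in knock down and 8030.2, 8666.5 and 8447.5 in wild type (8078 ± 320 and 8381 ± 323, SD, n = 3 each). The groups overlapped, and the interval of the log2 fold change, -0.10 to 0.15, was the narrowest among the members. Over the 16 alternative analyses the value lay between -0.25 and 0.07, beyond that interval at its lower end, and Rhoa was called on this probe set in none. Its probe set 1450632_at had an interval of -0.45 to 0.16, with knock down A at 7503.8 above the wild-type range of 6469.2 to 7023.0 and knock down B and C at 4610.3 and 5535.4 below it. Without knock down A that set fell by 0.33 (limma adjusted p = 0.00418).

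Of its close relatives, Rhoc rose and Rhob fell. Rhoc read 3038.3, 3889.9 and 3594.5 in knock down and 1379.3, 1436.6 and 1336.5 in wild type. It rose by 1.35 ± 0.09 on the log2 scale (limma adjusted p = 3.08e-06), with both of its probe sets called. Rhob, a paralogue found on endosomes, read 5583.6, 5487.1 and 5566.6 in knock down and 7828.2, 8082.6 and 8166.7 in wild type and fell by 0.45 (SE 0.04; limma adjusted p = 3.03e-05). Within arrays, Rhoc minus Rhoa changed by 1.33 and Rhob minus Rhoa by -0.47, each without overlap (exact permutation p = 0.1, adjusted 0.117 over the 7 pairs).

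Anillin and citron kinase hold the contractile ring and the later midbody. Anln read 945.0, 816.8 and 815.6 in knock down and 608.4, 539.6 and 627.7 in wild type on its brightest probe set (859 ± 74.4 and 592 ± 46.3, SD, n = 3 each). No array overlapped, and the log2 fold change was 0.46 ± 0.10 (limma adjusted p = 0.00579), which became 0.32 and was not called with median centring (limma adjusted p = 0.121). Its dim second set, 1439648_at, read 100.6 to 143.0 in knock down and 91.1 to 130.6 in wild type and was not called. Cit, on its brightest probe set, 1458276_x_at, read 771.0, 738.8 and 779.6 in knock down and 914.8, 779.4 and 695.4 in wild type (763 ± 21.5 and 797 ± 111). Its groups overlapped, and the interval was -0.33 to 0.13 (limma adjusted p = 0.537). The Cit sets 1455609_at and 1426028_a_at had wider intervals, -0.74 to 0.48 and -0.72 to 0.71, and were not called.

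The 4 member probe sets left out of the test as too dim were 1441889_x_at of Racgap1, 1443768_at of Rhoa, 1427669_a_at of Cit and 1441314_at of Incenp. No gene lost its representation by this.

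**Figure D3:**
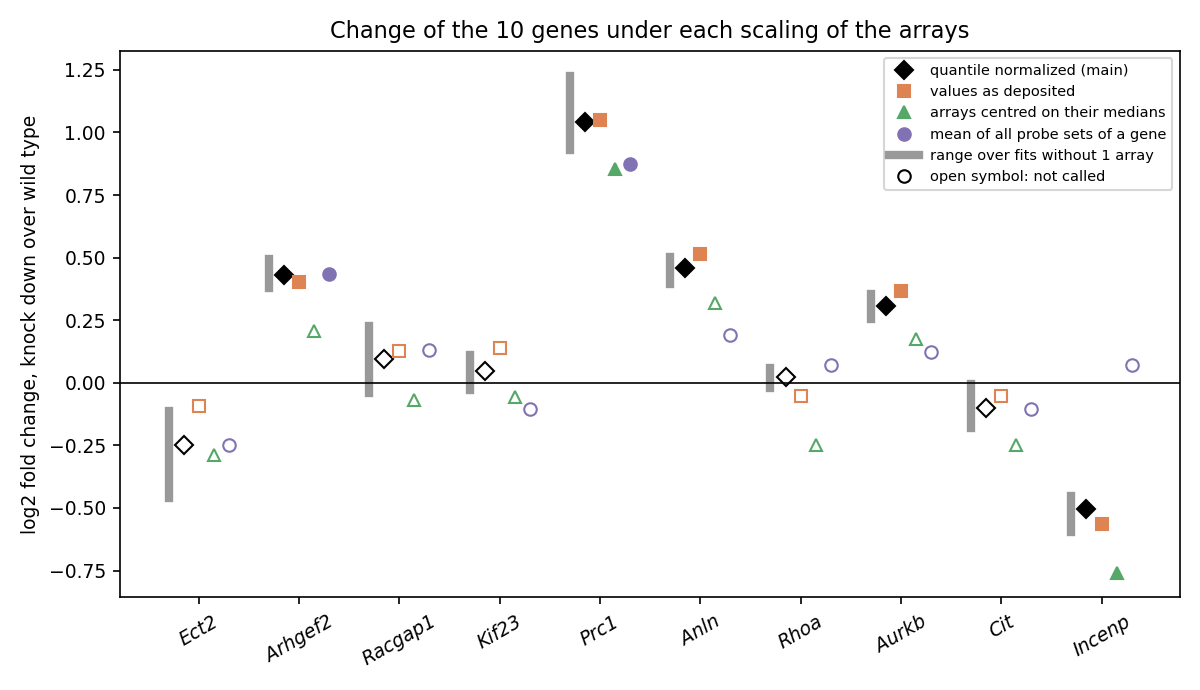
Log2 fold change of each gene's brightest probe set under quantile normalization, with the deposited values and with each array centred on its median, where filled symbols are called at a limma adjusted p of 0.05. Prc1 stays called in all 3 scalings and Incenp stays lower in all 3, while Arhgef2, Anln and Aurkb are not called with median centring. A further symbol reads each gene as the mean over its probe sets, where Incenp stands at 0.07 and is not called (limma adjusted p = 0.638). The grey bar is the range over fits without 1 array.

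The wider pathway was read from lists of genes for each step. Among partners at the central spindle and midbody, 7 of 11 tested genes were higher, 0 were lower and 4 were not called, with a median of 0.51 (at an unadjusted limma p under 0.05, also 7 higher and 0 lower). That is 63.6% higher, beside 18.3% of all genes. The largest rise was that of Rcc2, a regulator of the passenger complex, which read 7005.1, 6787.6 and 7335.7 in knock down and 3260.2, 2910.8 and 2977.7 in wild type, a change of 1.27 ± 0.06 (limma adjusted p = 1.86e-07). Plk1, the kinase that licenses the ECT2 to RACGAP1 contact, rose by 0.51 ± 0.08 (limma adjusted p = 0.000677). The midzone kinesins Kif20a and Kif20b, the spindle protein Nusap1 and the midbody protein Shcbp1 rose by 0.42 ± 0.12, 0.57 ± 0.14, 0.53 ± 0.06 and 0.55 ± 0.08. The call of Kif20a was lost in 6 of 16 alternative analyses and that of Kif20b in 3. Nusap1 was called on 1 of its 2 probe sets, with the other at 0.46. Birc5 and Cdca8, the other subunits of the passenger complex, and Cep55, which recruits the abscission machinery, had values of 0.08, 0.03 and 0.01 and were not called, although 1 of the 3 probe sets of Cdca8 was lower, at -0.25. With median centring, 3 of the 11 were higher.

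Contractile ring genes were lower more often than higher, with 1 of 21 tested higher, 9 lower and 11 not called, and a median of -0.13. That is 4.76% higher and 42.9% lower, beside 18.3% and 17.1% of all genes. On the deposited values 1 was higher and 7 lower, and with median centring 1 was higher and 11 lower. The list also holds general actin and profilin genes. Of these, Actg1 and Pfn1 were called lower although their deposited groups overlapped. The deposited mean of Pfn1 was 17562 in knock down and 16336 in wild type. Myl9, a regulatory light chain of myosin II, read 30.3, 96.0 and 61.4 in knock down, where it was within the range of the bacterial controls, and 1758.8, 1571.1 and 1607.5 in wild type, at least 13.8-fold lower. The light chain gene Myl12b rose, from 3163.4, 3229.8 and 3089.7 in wild type to 5934.0, 5896.0 and 6526.6 in knock down, by 1.03 ± 0.05 (limma adjusted p = 4.43e-07), on 1 of its 2 probe sets. Of the heavy chain genes, Myh9 read 11572.6, 10237.5 and 10464.3 in knock down and 13727.1, 13602.8 and 14551.2 in wild type and fell by 0.44 (SE 0.07; limma adjusted p = 0.00111), with 3 of its 5 probe sets lower and 1 higher. Myh10, the heavy chain that is known to be silenced as megakaryocytes become polyploid, was dim: 73.6, 37.9 and 29.1 in knock down, within the bacterial controls, and 119.5, 126.5 and 151.4 in wild type, at least 1.46-fold lower. The formin gene Diaph2 fell by 0.75 (SE 0.18; limma adjusted p = 0.00934) on 1 of 2 probe sets. Without knock down A, B or C in turn, 2 genes of the contractile ring list were higher, and 11, 8 and 8 were lower.

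Abscission genes, the ESCRT-III proteins that cut the last bridge and their partners, were called no more often than genes in general: 4 of 22 were higher, 2 lower and 16 not called, which is 27.3% called beside 35.5% of all genes and 18.2% higher beside 18.3%. Spast, a microtubule-severing enzyme, rose by 0.39 ± 0.11 (limma adjusted p = 0.0189) on 1 of its 2 probe sets, with the other at -0.09. That call was lost in 5 of 16 alternative analyses. Chmp4b, the filament-forming ESCRT-III subunit, rose by 0.22 ± 0.05 (limma adjusted p = 0.0126), also on 1 of 2 probe sets, a rise that turned to -0.04 with median centring. Chmp2a and Rab11a fell by 0.35 (SE 0.08; limma adjusted p = 0.00693) and 0.25 (SE 0.04; limma adjusted p = 0.00141), Rab11a on 1 of its 2 probe sets. These counts depended on single arrays and settings. They were 7 higher and 4 lower without knock down A, 3 and 4 without B, 1 and 2 without C, 1 and 2 without wild type A or without wild type C, and 0 and 2 without wild type B. With median centring 0 were higher and 5 lower, and without the intensity trend none was called, whereas at an unadjusted limma p under 0.05 the fit used throughout gave 6 higher and 3 lower.

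**Figure D4:**
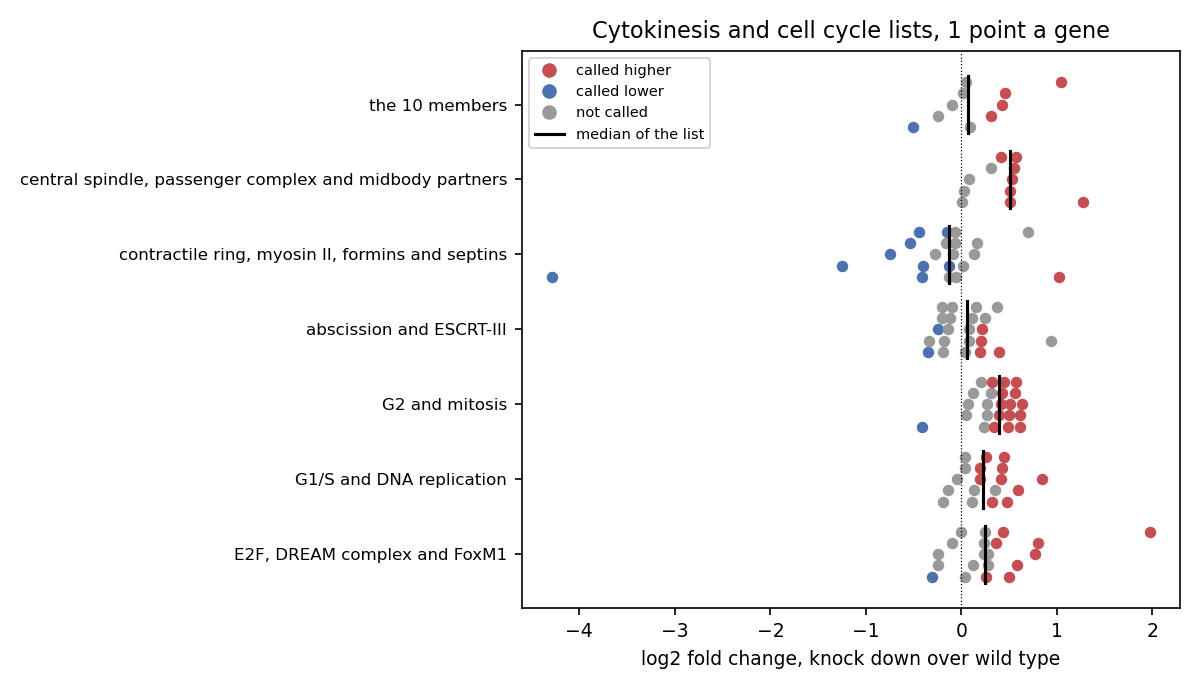
Log2 fold change of every tested gene of the cytokinesis and cell cycle lists described beside the 10 members, 1 point per gene, with called genes coloured and a bar at the list's median. Medians run from 0.51 for central spindle partners to -0.13 for the contractile ring, and Myl9 lies far below all others.

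Genes that mark cell division in general gave the level against which the members can be read. Of 23 tested genes of G2 and mitosis, 14 were higher, 1 (Nek2) was lower and 8 were not called, with a median of 0.39. That is 60.9% higher and 4.35% lower, beside 18.3% and 17.1% of all genes. Ccnb2 and Cdk1, the mitotic cyclin and its kinase, rose by 0.63 ± 0.09 and 0.62 ± 0.06. The checkpoint kinase Bub1b rose by 0.62 ± 0.09 and was called on 2 of its 3 probe sets, which ran from -0.03 to 1.15. The spindle motor Kif11 rose by 0.58 ± 0.10. Of 18 genes of G1/S and DNA replication, 10 were higher, 0 were lower and 8 were not called (at an unadjusted limma p under 0.05, 11 higher and 0 lower), with a median of 0.23. Here 55.6% were higher, again beside 18.3% of all genes. The licensing factor Cdt1 led them at 0.84 ± 0.07. With median centring, 4 and 2 genes of these lists were higher.

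Transcription factors of the cell cycle and their partners were also measured. Of 20 genes of E2F, the DREAM complex and FoxM1, 8 were higher, 1 (Tfdp2) was lower and 11 were not called, with a median of 0.25. That is 40.0% higher and 5.0% lower, beside 18.3% and 17.1% of all genes. Without any 1 of the wild-type arrays 5 were higher and 0 lower, and without knock down A 7 were higher and 2 lower (at an unadjusted limma p under 0.05, 11 higher and 2 lower over all 6 arrays). E2f2, E2f4 and Tfdp1 rose by 0.80 ± 0.09, 0.77 ± 0.11 and 0.58 ± 0.06, where E2f2 was called on 1 of its 2 probe sets, with the other at 0.29. E2f5 had the largest value, 1.97 ± 0.61 (limma adjusted p = 0.0326), but its knock down arrays read 237.8, 2057.9 and 1245.1 and the first lay within the wild-type range of 137.3 to 256.8. That call was on 1 of 3 probe sets and was lost in 8 alternatives.

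Each member was then set against the mean of the 23 genes of G2 and mitosis on the same array, which rose by 0.35. No overlap was seen for 5 of 10 members, against 54.8% of all genes, so separation was no more common among the members. The difference between a gene and that mean was higher in knock down without overlap for Prc1 alone among the members, by 0.70, as it was for 8.12% of all genes. It was lower in knock down without overlap for Kif23, Rhoa, Cit and Incenp, with changes of -0.30, -0.32, -0.45 and -0.85. That is 4 of 10 members, where 46.7% of all genes were lower in this way. The Incenp value was read on 1439436_x_at alone, and the other tested probe sets of Incenp were not called. The groups overlapped for the other 5, Arhgef2, Anln, Aurkb, Racgap1 and Ect2. Each separated difference had an exact two-sided permutation p of 0.1, the smallest possible, and 0.2 after adjustment over the 10, and this comparison was chosen after the values were seen.

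The cells of these samples also differed in lineage markers. The counts below stand beside 18.3% of all genes called higher and 17.1% called lower. Of 10 tested megakaryocyte markers 8 were lower and 0 higher, with a summed signal of 94350.5 to 117035.2 in knock down and 142074.2 to 151162.9 in wild type. Of 9 stem and progenitor markers 5 were higher and 1 lower, with sums of 14367.7 to 15146.0 and 7026.3 to 7398.2, and Flt3 and Erg were within the bacterial controls. Erythroid markers were lower in 4 of 9, higher in 1 (Slc4a1) and not called in 4, with sums of 8154.2 to 8401.0 and 22113.5 to 22519.6. The largest part of that fall was Hbb-y, at 1072.0 to 1225.9 in knock down and 9560.0 to 9952.5 in wild type. Neutrophil and monocyte markers were lower in 8 of 11 and higher in 0, with sums of 3228.3 to 3421.6 and 11242.5 to 11760.6, and macrophage markers were lower in 9 of 10 and higher in 0, with sums of 7490.7 to 7542.9 and 19577.6 to 20338.1, where Marco and Cd163 were within the controls in both groups. Mast cell and basophil markers were lower in 8 of 11 and higher in 1, with sums of 8195.7 to 9160.6 and 7067.0 to 7598.4, and 7 of them were within the controls in knock down. In that list Gata2, which progenitors express too, was the gene called higher, at 6719.4 to 7627.9 in knock down and 2433.4 to 2567.9 in wild type, and it made up most of the knock down sum. The part of these shifts in the member values was not tested, and in bulk samples fewer cells of a type and less RNA per cell cannot be told apart.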

How the data were processed

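The deposited table holds signal intensity on a linear scale for 45101 probe sets on 6 arrays, made by the authors. The array mean, with 2% trimmed at each end, averaged 500 over the 6 arrays. Which software made the signals is not given in the sources used here. Values per array are printed as deposited. Tests used log2(signal + 32) after quantile normalization, which removes any shift shared by all genes, and the offset understates changes of dim genes. Probe sets below the 30th percentile of mean value and 64 controls were left out. Groups were compared with limma 3.58.1 in R 4.3.3 (lmFit, and eBayes with trend), two-sided, with Benjamini-Hochberg adjustment over 31526 probe sets at 0.05. Each gene was read on its brightest probe set that names 1 gene. The annotation gave 34945 probe sets 1 symbol, 932 more than 1 and 9160 none, and symbols were updated with the RefSeq table of GRCm38.p6. Of 135 entries of the 7 pathway lists, 131 matched and 130 were tested, and 1 of these lists is counted in their total but not reported here. Named are Gata1, the members, up to 4 called genes with the largest change in each pathway list, and Rhob, Rhoc, Plk1, Birc5, Cdca8, Cep55, Kif20a, Myh9 and Myh10. Nek2, Tfdp2, Gata2, Actg1, Pfn1, Hbb-y and Slc4a1 were named after their values were seen. The members and lists were chosen with earlier results of these data known. Within background means that the gene exceeded the brightest of 27 bacterial control probe sets on no array of a group. Its fold is then a lower bound, written as at least, from normalized log2 means of the brighter group and of the higher, per array, of control and gene. The fit was tested on simulated data. The alternatives were offsets of 1 and 100, deposited values, median centring, no filter or the 50th percentile, signals floored at the bacterial controls, no trend, a replicate block, the mean over a gene's probe sets, and leaving out each array.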

Additional observations from a re-analysis of the deposited data

How the results depend on the processing

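With arrays centred on their medians, 3 member probe sets were higher in place of 7, 1 member gene (Prc1) in place of 4, and 15 genes of the 7 pathway lists in place of 48. There Chmp4b turned to -0.043. With a gene read as the mean over its probe sets, 2 member genes were higher and 0 lower, with Incenp at 0.072. Leaving out 1 array gave 3 to 4 member genes higher and 1 lower, 5 to 7 member probe sets higher and 1 to 2 lower, and 33 to 54 list genes higher and 14 to 24 lower. The second lower member probe set, 1450632_at of Rhoa, appeared without knock down A. Without the intensity trend 3 member genes were higher and 1 lower. No pairing of arrays by letter was detected. Same-letter deviations correlated at -0.042, -0.017 and -0.0096, and different-letter ones at -0.021 to 0.039. Such a check cannot show whether same-letter samples were prepared together. With the letter as a replicate block, 3 member genes were higher and 1 lower, and 42 list genes were higher and 14 lower. Array number and, for Ect2, signal over background limit the precision.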
